A study of Mus musculus with 20 samples.

Results

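The lymphoid transcription factor genes of the IRF, ETS and OCT groups were followed in chromatin-associated RNA after IKZF1 induction. The members were taken by name and matched from symbol to mouse Ensembl identifier, which gave 9 genes of the 56239 counted: Irf4, Irf8, Spi1, Spib, Ets1, Fli1, Pou2af1, Pou2f1 and Pou2f2. All libraries came from B3, a mouse line of lymphoma origin at the pre-B stage that had been retrovirally transduced with IKZF1-ERt2, a fusion of IKZF1 with an estrogen receptor domain that enters the nucleus on addition of 4-hydroxytamoxifen (4-OHT), and sorted for the GFP of the construct. After 500 nM 4-OHT, the RNA attached to chromatin, a fraction rich in nascent transcripts, was sequenced at 10 time points (0 h without treatment, then 30 min and 1, 2, 6, 12, 15, 18, 21 and 24 h), with 2 replicates at each. The 20 libraries include neither untransduced cells nor cells given vehicle for the same time, so effects of IKZF1, of 4-OHT and of time in culture cannot be told apart, and in bulk RNA neither can fewer cells of a type and less RNA per cell.

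IRF4 and IRF8 are closely related interferon regulatory factors that bind DNA weakly alone and are recruited to composite ETS-IRF elements by the ETS factors PU.1 (encoded by Spi1) and Spi-B (Spib). In the B lineage, IRF4 and IRF8 are known for limiting pre-B cell proliferation and opening the light chain loci, while Ets1 and Fli1 are ETS factors of lymphocytes that are encoded side by side. Oct-1 (Pou2f1) and Oct-2 (Pou2f2) bind the octamer of immunoglobulin promoters, where OCA-B (Pou2af1), which has no POU domain of its own, joins them as a B-cell coactivator.

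Counts were summed over whole gene bodies, introns included, and libraries held 33296158 to 46868954 counts with a median of 40943260. Levels are given as CPM, counts scaled to a common library size with TMM factors, and the 9 induced time points were each set against 0 h in 1 model of all 20 libraries with edgeR's quasi-likelihood test and Benjamini-Hochberg adjustment over the 16601 genes tested. A change passed at an adjusted p under 0.01, and a gene was called when it also changed by more than 2-fold. All 9 comparisons share the 0 h libraries. The replicates at 12, 18 and 21 h differed from each other more than those of the other times. Their chi-square values were 4.78 to 14.9 per degree of freedom against 1.26 to 2.58. A model without these 6 libraries left the counts of members called at 2 and 24 h at the same numbers. That model cannot check the results at 12, 18 and 21 h, which are tested with a spread shared by all times. Genes that mark pre-B cells summed to 11400 to 11500 CPM at 0 h and 12700 to 13200 CPM at 24 h, with up to 16500 CPM in between. Ebf1 (9790 CPM at 0 h and 7840 CPM at 24 h) and Pax5 (1070 and 3950 CPM) made up most of this sum, while the surrogate light chain genes Igll1 and Vpreb1 went from 169 to 0.985 CPM and from 17.6 to 0.37 CPM. Of these 10 markers only Rag1 and Rag2, whose bases all lie in other genes, were at 0. Markers of T cells stayed at or below 2.17 CPM in sum and those of erythroid cells at or below 0.654 CPM in every library. Ikzf1, whose counts cannot separate the introduced from the endogenous gene and do not show nuclear entry of the protein, had 4842 ± 4.43 CPM before induction and 4970 ± 28.6 CPM after 30 min (SD, n = 2). Its counts passed as higher from 2 h on and reached 9288 ± 209 CPM at 15 h (log2 0.94) and 8804 ± 599 CPM at 24 h (log2 0.86).

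Of the 9 members, 8 passed the filter of at least 10 counts in at least 2 libraries. At 30 min 3 members had fallen and 0 had risen, where 4.74% of all genes passed as lower, 3.7% as higher and 8.44% in either direction. At an unadjusted p under 0.05 edgeR had Pou2f1 and Pou2f2 higher at 30 min, and DESeq2 had 0 members higher at an adjusted p under 0.01. Pou2af1, Pou2f1 and Pou2f2 passed as higher at 30 min in the model of the 4 libraries compared alone and in that without 12, 18 and 21 h. At 1 h 3 had risen and 4 had fallen, where 19.2% and 17.1% of all genes did so, and at 2 h the split was again 3 and 4, against 23.9% and 23.8%. At 6 h 4 were higher and 2 lower (all genes 30.0% and 27.3%), at 12 h 5 and 2 (31.2% and 29.5%), and at 15 h 5 and 2 (33.1% and 32.6%). At 18 h 4 were higher and 2 lower (35.3% and 36.0%), at 21 h 3 and 2 (35.7% and 36.0%), and at 24 h 4 and 2 (35.4% and 36.1%). From 6 h on the members that passed as lower were always Irf4 and Fli1.

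Fewer members went past 2-fold. Irf4 was called down at 30 min, where 0.41% of all genes were called down and 0.0542% up, and at each time point up to 21 h. Pou2f2 was called up at 1 h (2.33% of all genes up and 4.84% down), and Fli1 joined Irf4 among the genes called down at 2 h (6.25% up and 6.91% down). At 6 h Irf4 was the single member called (10.9% up and 9.13% down), and at 12 h Ets1 and Pou2af1 were called up (13.2% up and 9.92% down). At 15 h Spib came to these (15.3% up and 13.1% down), and at 18 and 21 h Ets1 and Pou2af1 were again the members called up (19.1% up and 17.6% down at 18 h, 20.1% and 19.4% at 21 h). At 24 h Ets1 alone was called up and 0 members down (20% up and 20.1% down). Scaling by library totals alone moved the median log2 fold change of all genes at 24 h from -0.01 to -0.268 and gave 2603 genes up and 4260 down in place of 3323 and 3329. Between neighbouring times, 6 members passed from 30 min to 1 h (32.0% of all genes), 2 from 1 to 2 h (22.3%), 4 from 2 to 6 h (34.4%) and 2 from 6 to 12 h (27.5%). Later steps passed for 3 members from 12 to 15 h (19.6%), 4 from 15 to 18 h (29.1%), 3 from 18 to 21 h (12.4%) and 3 from 21 to 24 h (8.63%). Over the whole time course 6 of the 8 tested members changed, all but Spi1 and Pou2f1, against 51.9% of all genes. The members moved in different directions and at different times, and their median log2 fold change was -0.05 after 2 h, 0.27 after 6 h and 0.53 after 12 h. It then was 0.51 after 15 h, 0.42 after 18 h, 0.18 after 21 h and 0.11 after 24 h, while the median over all genes lay between -0.01 and 0.03.

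**Figure D1:**
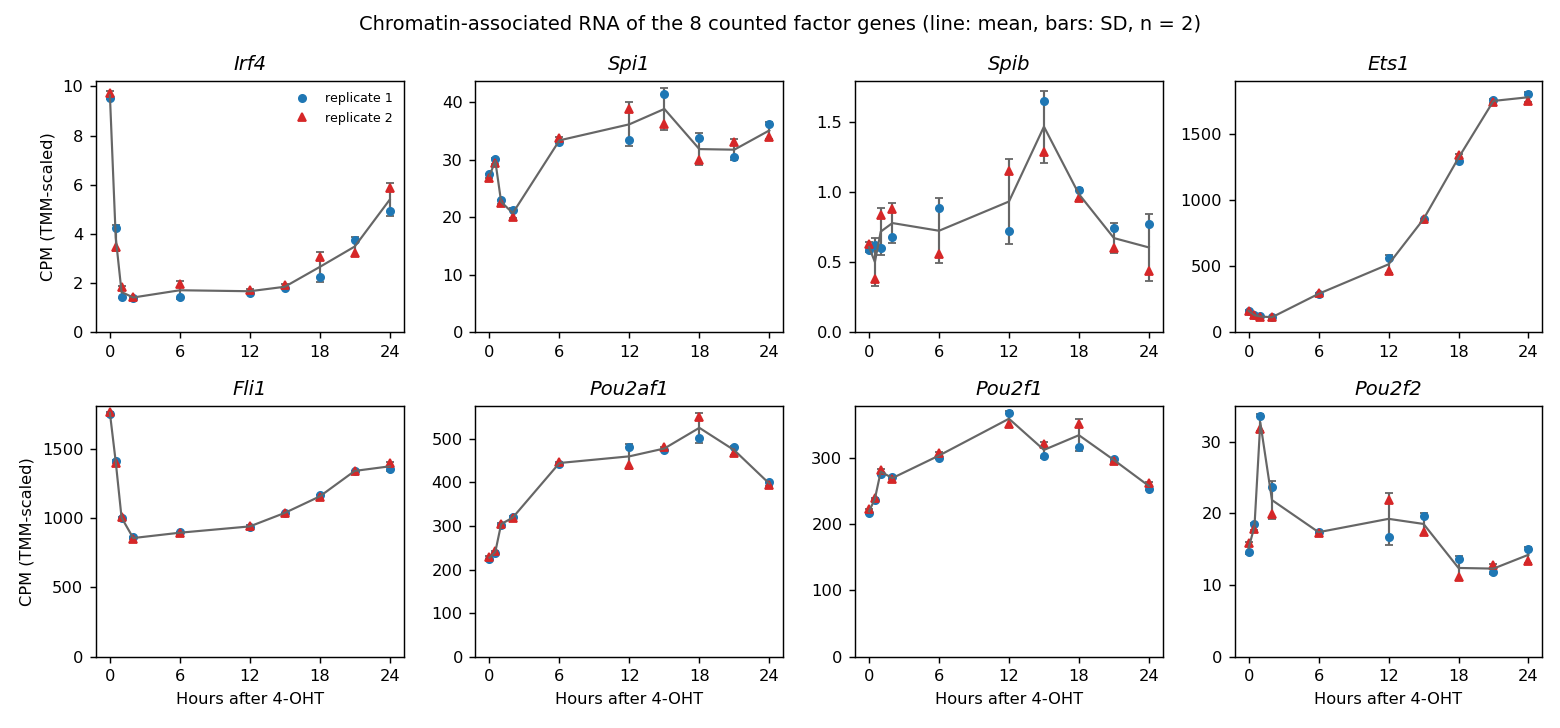
TMM-scaled CPM of the 8 counted members in each library (points, 2 replicates per time) against hours after 4-OHT, with the mean as a line and the SD as bars; each panel has its own axis from 0. Irf4 and Fli1 fall to 1.41 and 856.6 CPM at 2 h, Pou2f2 peaks at 32.7 CPM at 1 h, and Ets1 climbs to 1775 CPM at 24 h.

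Irf4, which drives pre-B and plasma cell differentiation, showed the deepest fall of the members and was the only one called at 30 min. Irf4 (ENSMUSG00000021356, chromosome 13, 30749226 to 30766976, plus strand, GRCm38) was at 9.53 and 9.75 CPM in the 0 h libraries, 4.22 and 3.48 CPM at 30 min, 1.45 and 1.82 CPM at 1 h and 1.41 and 1.41 CPM at 2 h. Every induced library up to 2 h lay below both 0 h libraries, and the time points at 30 min and 1 h did not overlap. The RefSeq promoter window of Irf4 (GRCm38.p6, chr13:30748983-30749282, plus strand, 250 bases before to 50 after the start) is shown because Irf4 was the only member called at 30 min, with matches to the ETS core GGAA on either strand in capitals.
Irf4 promoter: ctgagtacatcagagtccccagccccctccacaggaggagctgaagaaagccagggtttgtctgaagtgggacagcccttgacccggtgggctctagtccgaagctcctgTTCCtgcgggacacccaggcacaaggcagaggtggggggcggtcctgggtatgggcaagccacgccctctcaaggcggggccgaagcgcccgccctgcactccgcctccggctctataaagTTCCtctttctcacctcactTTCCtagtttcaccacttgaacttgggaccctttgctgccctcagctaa
The window holds 3 ETS cores, a number reached or passed in 66.3% of 32851 mouse promoter windows. GGAA is also part of the letters that IKZF factors recognise, as is GGGA, which occurs 4 times here and in 95.3% of windows. The longer letters TGGGAA, held by 25.6% of windows, do not occur in this one.

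The log2 fold change of Irf4 was -1.33 at 30 min (standard error, SE, 0.123, adjusted p = 1.24e-07, edgeR) and -2.77 at 2 h (SE 0.15, adjusted p = 9.43e-13), which is 6.82-fold lower. In steps between neighbouring times, Irf4 fell from 0 h to 30 min and again from 30 min to 1 h (log2 -1.24, adjusted p = 3.87e-06), and the step from 1 to 2 h was -0.20 (adjusted p = 0.509). The mean log2 CPM was midway between the 0 h level and the lowest level after 31.4 min, with 0.567 h for replicate 1 alone and 0.469 h for replicate 2 alone. From 6 h to 15 h Irf4 stayed low. Irf4 was at 1.45 and 1.96 CPM at 6 h, 1.61 and 1.72 CPM at 12 h, and 1.78 and 1.92 CPM at 15 h. It then was 2.23 and 3.08 CPM at 18 h, 3.77 and 3.20 CPM at 21 h, and 4.92 and 5.86 CPM at 24 h. The 24 h libraries lay above all others after 30 min but still below both 0 h libraries. The step from 21 to 24 h passed (log2 0.64, SE 0.149, adjusted p = 0.00474), and those from 15 to 18 h and from 18 to 21 h did not (adjusted p = 0.0296 and 0.107). At 24 h Irf4 remained lower than at 0 h by 0.83 on the log2 scale (SE 0.119, adjusted p = 1.74e-06), no longer by 2-fold. These values rest on 54 to 441 counts per library.

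Irf8, which shares targets with IRF4 in pre-B cells, was listed at 0 in all 20 libraries, and its transcription was not measured. Irf8 (ENSMUSG00000041515, chromosome 8, 120736358 to 120756694, plus strand) lies wholly inside a single annotated gene, Gm20388, of 4.43 Mb on the same strand, and none of its bases is free of that gene. All 207 genes wholly inside Gm20388 were at 0, including Rpl13 and Cox4i1, which encode a ribosomal protein and a respiratory chain subunit that cells use throughout. The same held across the genome. Of protein-coding genes wholly inside another gene, 99.5% were at 0 in every library when that gene was on the same strand and 99.3% when it was on the opposite strand, against 12.4% of those not inside another gene. Counts of a gene therefore come from the bases that no other gene covers, which are 100% of the gene body for Irf4, Spi1 and Spib, 98.8% for Ets1, 95.4% for Pou2f2, 89.8% for Pou2f1, 86.7% for Fli1 and 85.6% for Pou2af1.

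Of the ETS members, Ets1 rose as Fli1 stayed below its 0 h level. Ets1, needed for normal B-cell differentiation, was at 163 and 160 CPM at 0 h, 128 and 128 CPM at 30 min, 121 and 116 CPM at 1 h, and 114 and 111 CPM at 2 h. It was then 286 and 293 CPM at 6 h, 560 and 465 CPM at 12 h, and 854 and 854 CPM at 15 h. It reached 1294 and 1340 CPM at 18 h, 1757 and 1738 CPM at 21 h, and 1802 and 1749 CPM at 24 h. Ets1 thus dipped below both 0 h libraries in every library up to 2 h and stood above them in every library from 6 h. The log2 fold change of Ets1 was -0.33 at 30 min (SE 0.0554, adjusted p = 0.000218), -0.52 at 2 h (SE 0.0557, adjusted p = 6.09e-08) and 0.84 at 6 h (SE 0.0544, adjusted p = 1.17e-11). At 24 h it was 3.46 (SE 0.058, adjusted p = 3.31e-22, edgeR), 11-fold above 0 h. Each step from 2 h to 21 h passed as a rise, the largest from 2 to 6 h (log2 1.36, adjusted p = 5.52e-14), and the step from 21 to 24 h was 0.02 (adjusted p = 0.824). The midpoint of the rise was reached after 12.3 h, with 11.7 h for replicate 1 alone and 12.6 h for replicate 2 alone. The change from 2 to 24 h was 3.98 on the log2 scale (SE 0.0598, adjusted p = 1.81e-22, edgeR). It compares the dip with the rise at the times of the largest early and late changes, chosen from the same libraries.

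Fli1, an ETS factor of early haematopoietic and B cells, was at 1755 and 1764 CPM at 0 h, 1413 and 1400 CPM at 30 min, 1003 and 1005 CPM at 1 h, and 863 and 851 CPM at 2 h. It was at 899 and 891 CPM at 6 h, 935 and 946 CPM at 12 h, and 1036 and 1039 CPM at 15 h. It then was 1164 and 1150 CPM at 18 h, 1341 and 1341 CPM at 21 h, and 1352 and 1395 CPM at 24 h. All 18 induced libraries lay below both 0 h libraries, and the 2 h libraries were the lowest. Fli1 was lower than at 0 h at every time point tested, by 0.32 on the log2 scale at 30 min (SE 0.0277, adjusted p = 4.24e-08), by 1.04 at 2 h (SE 0.028, adjusted p = 7.52e-18) and by 0.36 at 24 h (SE 0.0277, adjusted p = 1.14e-10). The fall at 2 h was 2.05-fold, just past the 2-fold limit, and in a test against a 2-fold change Irf4 was the 1 member left. Each step down to 2 h passed, those from 2 to 6 h and 6 to 12 h did not (adjusted p = 0.0681 and 0.0489), and the 3 steps from 12 to 21 h passed as rises of 0.14, 0.16 and 0.21 on the log2 scale. The midpoint of the fall was reached after 42.1 min, with 0.702 h for either replicate alone.

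Ets1 (ENSMUSG00000032035, chromosome 9, 32636221 to 32757820, plus strand) and Fli1 (ENSMUSG00000016087, chromosome 9, 32422204 to 32542861, minus strand) are neighbours. By distance between starts, each is the nearest tested protein-coding gene to the other. They are read away from each other, from starts 93.4 kb apart. Their gene bodies are of nearly the same length, so levels are compared as CPM per kb of gene body. On this scale the ratio of Ets1 to Fli1 was 0.0923 and 0.0897 in the 0 h libraries. After 2 h it was 0.132 in replicate 1 and 0.129 in replicate 2, after 6 h 0.316 and 0.326, and after 15 h 0.818 and 0.816. The ratio passed 1 at 18 h, where it was 1.10 and 1.16, and stood at 1.32 and 1.24 in the last libraries. From 1 h on, both libraries of each time point lay above both 0 h libraries. With the lengths limited to unshared bases the ratio was 0.968 and 1.01 at 18 h and 1.16 and 1.09 at 24 h. Exonic reads were not counted apart from intronic ones. The same counts were also divided by summed exon length, which is 3.486 kb for Fli1 and 8.476 kb for Ets1. On that scale Fli1 led at every time, with 394 against 209 CPM per kb at 24 h. By gene body and by unshared bases Ets1 led at 24 h, while the unshared ratio at 18 h lay on either side of 1. A gene's length is the same at every time, so the choice of length could not alter how the ratio changed over time. Ets1 made up 8.51% and 8.29% of the summed Ets1 and Fli1 CPM at 0 h and 57.1% and 55.6% at 24 h. The sum itself was 1918 and 1924 CPM at 0 h, 977 and 961 CPM at 2 h, and 3154 and 3145 CPM at 24 h. The ratios are given as a description and were not tested.

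**Figure D2:**
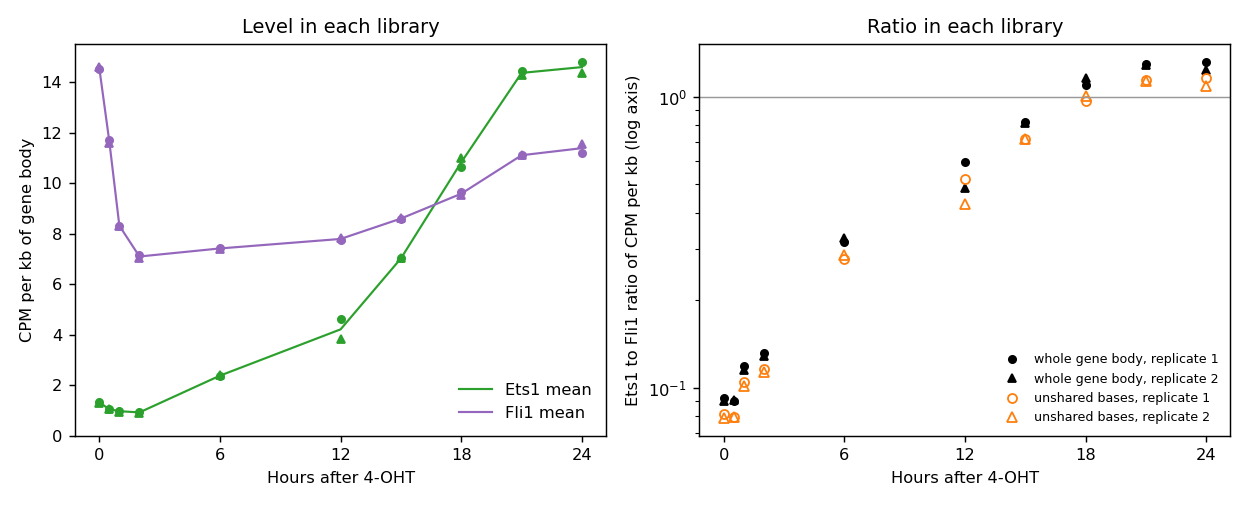
Left, CPM per kb of gene body of Ets1 and Fli1 in each library (circles replicate 1, triangles replicate 2, lines the means) against hours after 4-OHT; right, the Ets1 to Fli1 ratio in each library on a log axis, for whole gene bodies and for unshared bases, with a line at 1. Fli1 leads at 0 h (14.6 against 1.33 CPM per kb) and Ets1 at 24 h (14.6 against 11.4 CPM per kb).

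Spi1, whose product PU.1 is a dose-dependent factor of B and myeloid fate, moved little but in both directions. Spi1 (ENSMUSG00000002111, chromosome 2, 91082390 to 91115756, plus strand) was at 27.4 and 26.9 CPM at 0 h, 30.1 and 29.4 CPM at 30 min, 22.9 and 22.4 CPM at 1 h, and 21.3 and 20.1 CPM at 2 h. It was at 33.0 and 33.7 CPM at 6 h, 33.4 and 38.8 CPM at 12 h, and 41.4 and 36.2 CPM at 15 h. It was 33.8 and 29.8 CPM at 18 h, 30.4 and 33.0 CPM at 21 h, and 36.1 and 34.0 CPM at 24 h. Libraries at 1 and 2 h lay below, and libraries from 6 h on above, both 0 h libraries. Spi1 fell by 0.39 on the log2 scale at 2 h (SE 0.0782, adjusted p = 0.000188) and was higher by 0.51 at 15 h (SE 0.0741, adjusted p = 2.33e-06) and 0.37 at 24 h (SE 0.0754, adjusted p = 0.000152), none of these above 2-fold. The change from 2 to 15 h, times chosen as those of its largest early and late changes, was 0.91 (SE 0.0769, adjusted p = 1.14e-09, edgeR). Scaled by library totals, the rise at 24 h was 0.11 (adjusted p = 0.236, from 2.88e-09 to 0.236 over 12 alternatives), and the fall at 1 h no longer passed when any of the 4 libraries compared was left out (adjusted p from 0.0274 to 0.0513). The changes of 0.30 at 6 h and 0.23 at 18 h did not pass under 2 of 12 and 6 of 11 alternatives, with edgeR or DESeq2 adjusted p of up to 0.0163 and 0.25. Myeloid markers summed to 1.42 to 1.62 CPM at 0 h and 0.388 to 0.543 CPM at 24 h, with Lyz2 and Mpo at no more than 0.216 and 0.194 CPM in any library and Itgam, nearly all of whose bases lie in other genes, at 0. The 3 dendritic markers summed to 1.34 to 1.49 CPM at 0 h and 50.4 to 64.8 CPM at 24 h. Most of this sum was Flt3, at 1.17 CPM at 0 h and 54.6 CPM at 24 h. Itgax (0.0662 and 2.49 CPM) and Siglech (0.176 and 0.513 CPM) were also higher at 24 h, on fewer counts. The part of other cells in the Spi1 values was not tested.

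Spib, the PU.1 relative of later B cells, was near the limit of counting. Spib (ENSMUSG00000008193, chromosome 7, 44525993 to 44532071, minus strand) had 27 and 28 counts in the 0 h libraries (0.583 and 0.631 CPM), 64 and 53 counts at 15 h (1.65 and 1.29 CPM), and 26 and 16 counts at 24 h (0.775 and 0.434 CPM). At the other times it had 17 to 46 counts. The 15 h libraries were the highest of all 20 and lay above both 0 h libraries, while those at 24 h lay on either side of them. At 15 h Spib was called up (log2 1.27, SE 0.275, adjusted p = 0.000317), and at every other time point the change did not pass (adjusted p from 0.0373 to 0.957). Per kb of gene body, Spi1 was 8.57 and 7.76 times Spib at 0 h, 4.58 and 5.12 times at 15 h, and 8.49 and 14.3 times at 24 h.

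All 3 OCT members had risen by 1 h. Pou2af1 (ENSMUSG00000032053, chromosome 9, 51213708 to 51240080, plus strand) was at 225 and 229 CPM at 0 h, 239 and 243 CPM at 30 min, 303 and 306 CPM at 1 h, and 321 and 318 CPM at 2 h. It was at 443 and 446 CPM at 6 h, 481 and 439 CPM at 12 h, and 475 and 481 CPM at 15 h. It was at 501 and 549 CPM at 18 h, 481 and 466 CPM at 21 h, and 401 and 393 CPM at 24 h. Every library after 0 h lay above both 0 h libraries, with the 18 h libraries the highest. The log2 fold change of Pou2af1 was 0.42 at 1 h (SE 0.0424, adjusted p = 3.68e-08), 0.97 at 6 h (SE 0.0425, adjusted p = 1.71e-14), 1.21 at 18 h (SE 0.0426, adjusted p = 1.38e-16) and 0.81 at 24 h (SE 0.0426, adjusted p = 1.31e-13). It was past 2-fold from 12 to 21 h, but at 0.95 without 12 h replicate 1 for 12 h and at 0.826 with library totals for 21 h. The rise came in steps from 30 min to 1 h and from 2 to 6 h, and the step from 21 to 24 h passed as a fall of 0.25 on the log2 scale (adjusted p = 0.00024). The midpoint was reached after 2.94 h, with 2.56 h for replicate 1 alone and 3.31 h for replicate 2 alone.

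Pou2f1, the widely expressed octamer factor, was at 216 and 222 CPM at 0 h, 237 and 239 CPM at 30 min, 276 and 282 CPM at 1 h, and 270 and 268 CPM at 2 h. It was at 300 and 306 CPM at 6 h, 367 and 350 CPM at 12 h, and 303 and 320 CPM at 15 h. It was at 317 and 351 CPM at 18 h, 298 and 295 CPM at 21 h, and 253 and 262 CPM at 24 h. All 18 induced libraries lay above both 0 h libraries, with the highest mean at 12 h. Its log2 fold change was 0.35 at 1 h (SE 0.0426, adjusted p = 6.08e-07), 0.71 at 12 h (SE 0.0426, adjusted p = 2.84e-12) and 0.23 at 24 h (SE 0.0428, adjusted p = 4.4e-05). It did not pass 2-fold at any time. Scaled by library totals, the value at 24 h was -0.025 (adjusted p = 0.509, from 1.42e-12 to 0.509 over 12 alternatives). Pou2f1 (ENSMUSG00000026565, chromosome 1, 165865154 to 166002678, minus strand) overlaps the 3' end of the Cd247 gene on the opposite strand, which itself was at 4.62 CPM at 0 h and 91.0 CPM at 24 h, and the bases shared by the pair were not counted.

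Pou2f2, the B-cell octamer factor, peaked early and was lowest at 18 and 21 h. Pou2f2 (ENSMUSG00000008496, chromosome 7, 25087344 to 25179726, minus strand) was at 14.6 and 15.8 CPM at 0 h, 18.6 and 17.8 CPM at 30 min, 33.5 and 31.8 CPM at 1 h, and 23.8 and 19.97 CPM at 2 h. It was at 17.4 and 17.3 CPM at 6 h, 16.7 and 21.8 CPM at 12 h, and 19.7 and 17.4 CPM at 15 h. It was at 13.6 and 11.2 CPM at 18 h, 11.8 and 12.8 CPM at 21 h, and 15.0 and 13.4 CPM at 24 h. The 1 h libraries stood above all others, and those at 24 h overlapped with 0 h. The log2 fold change of Pou2f2 was 1.11 at 1 h (SE 0.103, adjusted p = 1.07e-08) and 0.52 at 2 h (SE 0.107, adjusted p = 0.000251), and -0.09 at 24 h (SE 0.114, adjusted p = 0.455). It was called up at 1 h. The step from 30 min to 1 h was a rise of 0.85 on the log2 scale (adjusted p = 6.96e-07). That from 1 to 2 h was a fall of 0.58 (adjusted p = 0.00012). All libraries at 18 and 21 h lay below both 0 h libraries, and the step from 15 to 18 h passed as a fall (log2 -0.57, adjusted p = 0.000342, edgeR). Against 0 h, the changes of -0.29 at 18 h and -0.30 at 21 h did not pass (adjusted p = 0.0256 and 0.0247). With library totals they were -0.413 and -0.533, and both passed as lower. At 12 h the change passed (log2 0.35, adjusted p = 0.00761) but did not under 6 of 11 alternatives, most clearly without 12 h replicate 2 (log2 0.14, adjusted p = 0.307, from 0.000138 to 0.307 over the 11). Without 2 h replicate 1 the value at 2 h was 0.40 (adjusted p = 0.0119).

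The promoter windows of the OCT members that went past 2-fold are shown for comparison with that of Irf4, again with GGAA on either strand in capitals. The window of Pou2af1 is chr9:51213440-51213739 on the plus strand, and that of Pou2f2, which belongs to a start inside the annotated gene, is chr7:25132411-25132710 on the minus strand (RefSeq, GRCm38.p6).
Pou2af1 promoter: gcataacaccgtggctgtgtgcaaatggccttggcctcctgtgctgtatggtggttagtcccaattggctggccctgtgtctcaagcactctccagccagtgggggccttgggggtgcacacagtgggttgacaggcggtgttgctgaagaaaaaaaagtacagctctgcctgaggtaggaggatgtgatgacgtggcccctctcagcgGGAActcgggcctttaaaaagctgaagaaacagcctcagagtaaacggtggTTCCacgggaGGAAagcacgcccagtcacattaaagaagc
Pou2f2 promoter: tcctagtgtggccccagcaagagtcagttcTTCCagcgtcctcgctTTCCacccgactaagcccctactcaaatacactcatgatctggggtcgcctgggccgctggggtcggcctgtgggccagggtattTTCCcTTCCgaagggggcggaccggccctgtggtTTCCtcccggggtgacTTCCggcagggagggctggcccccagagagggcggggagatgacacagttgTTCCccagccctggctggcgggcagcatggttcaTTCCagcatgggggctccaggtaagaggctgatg
The Pou2f2 window holds 8 ETS cores, a number reached in 3.72% of all windows, and 1 match to the composite ETS-IRF letters GGAANNGAA, which overlaps an ETS core and which 8.24% of windows hold. The Pou2af1 window holds 3 ETS cores and no composite element. GGGA occurs 3 times in the Pou2af1 window and 5 times in that of Pou2f2. Neither window holds TGGGAA, the octamer letters ATGCAAAT (1.74% of windows) or the interferon-type letters GAAANNGAA (8.56% of windows), counted on both strands. Of the 9 members 6 matched a RefSeq window. Irf8, Pou2f1 and Spib are the others, and Spi1, Ets1 and Fli1 had none.

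**Figure D3:**
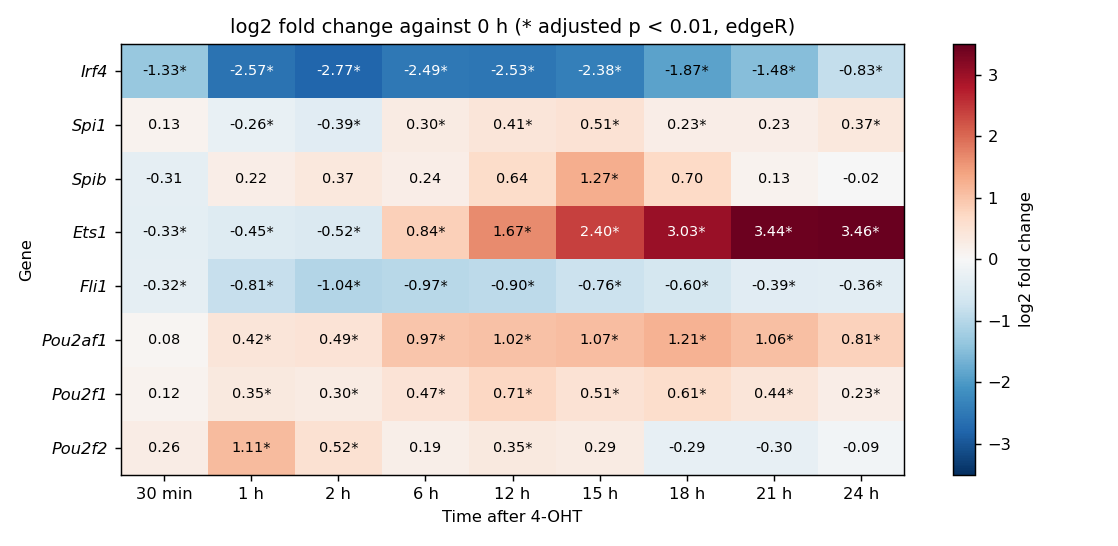
Log2 fold change of each member (rows) at each time after 4-OHT (columns) against 0 h, with the value in each cell, colour from -3.5 to 3.5 and an asterisk where the adjusted p was under 0.01. Irf4 and Fli1 are lower in all 9 columns, Pou2af1 and Pou2f1 are higher from 1 h, and Ets1 and Spi1 turn from lower to higher between 2 and 6 h.

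Levels per length placed the members in a wide range. At 0 h Fli1 was highest with 14.6 ± 0.056 CPM per kb of gene body, followed by Pou2af1 with 8.62 ± 0.106, Pou2f1 with 1.59 ± 0.0317, Ets1 with 1.33 ± 0.0213, Spi1 with 0.814 ± 0.0122, Irf4 with 0.543 ± 0.00887, Pou2f2 with 0.164 ± 0.00954 and Spib with 0.0998 ± 0.00549 CPM per kb (SD, n = 2). No neighbours in this order overlapped between their libraries. At 2 h Pou2af1 led with 12.1 CPM per kb and Irf4 was last with 0.0795 CPM per kb, below Spib at 0.128. At 24 h Pou2af1 (15.1 ± 0.205) and Ets1 (14.6 ± 0.306) led Fli1 (11.4 ± 0.254), again without overlap between neighbours. These counts include introns, and exonic reads were not counted apart. Divided by summed exon length, the same counts put Fli1 first at 2 h (246 CPM per kb against 125 for Pou2af1). At 24 h, on that scale, Ets1 (209) and Pou2af1 (156) followed Fli1 (394).

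Among the 12056 genes averaging at least 1 CPM, the gene whose 10 time-point means of log2 CPM were most like those of Irf4 was Fli1 (Pearson r = 0.968), followed by Acot11 (0.959). These are descriptions over 10 time points that share libraries and scaling. For Fli1 the most alike genes were Lamc1 (0.981), Acot11 (0.978) and Fes (0.976). Ets1 was most alike to Gm16565 (0.996), Phf21a (0.996) and E430024I08Rik (0.995), and Pou2af1 to 1700055D18Rik (0.992), Gm4035 (0.990) and Tmem62 (0.989). For Pou2f1 these were Far1 (0.974), 1110059E24Rik (0.961) and Gramd1c (0.955), for Pou2f2 Dffa (0.962), E4f1 (0.951) and Txnrd2 (0.949), and for Spi1 Mrfap1 (0.950), mt-Nd6 (0.927) and Traf3ip2 (0.924). Between members, Pou2af1 and Pou2f1 had r = 0.877, Ets1 and Pou2af1 0.784, and Ets1 and Fli1 0.156. For Irf4 the gene next after Acot11 was 6430550D23Rik (0.956).

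Among the nearest tested protein-coding neighbours of the members was Dusp22, whose start lies 89.2 kb from that of Irf4. Dusp22 had a log2 fold change against 0 h of 1.19 at 2 h (adjusted p = 1.3e-12) and 3.63 at 24 h (adjusted p = 1.79e-22). Irf4 was at -2.77 and -0.83 at these times, and its step from 21 to 24 h was a rise. On the other side of Irf4, Exoc2 was at 0.08 at 2 h (adjusted p = 0.162) and 0.99 at 24 h (adjusted p = 1.6e-14). Beside Pou2af1, Gm32742 fell by 1.83 at 2 h and 3.80 at 24 h, and Colca2 rose by 0.85 and 1.16. Pold1, which encodes a DNA polymerase subunit, lies beside Spib and fell by 2.17 at 24 h (adjusted p = 6.06e-17), and Mybpc2 on the other side of Spib rose by 1.35 (adjusted p = 0.00743). Dedd2 beside Pou2f2 rose by 1.27 at 24 h, and Kirrel3, the far neighbour of Ets1 with its start 1850 kb away, fell by 2.90. Kcnj1, the other neighbour of Fli1, with its start 170.4 kb away, was called down at 24 h on few counts. It was at 0.186 CPM at 0 h and 0.0149 CPM at 24 h. Zfp574, Dusp27, Cog2, Slc39a13 and Mybpc3 were not called at 2 h or 24 h. The start of Cog2 lies 3784 kb from that of Irf8. Gm20388, which holds Irf8, had a log2 fold change of -0.97 at 24 h (adjusted p = 8.07e-12, edgeR) and was not called.

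Other IRF genes moved in both directions. Of 8 IRF genes listed 7 were tested, and at 2 h 1 had risen (23.9% of all genes) and 3 had fallen (23.8%). Irf1 was called up (6.25% of all genes) and Irf4 called down (6.91%). Irf1, the interferon-induced activator, was at 3.85 and 3.38 CPM at 0 h, 9.37 and 8.93 CPM at 2 h and 17.5 and 17.1 CPM at 24 h. The log2 fold change of Irf1 was 1.34 at 2 h (SE 0.107, adjusted p = 6.51e-10) and 2.26 at 24 h (SE 0.1, adjusted p = 5.99e-15). At 24 h 4 IRF genes were higher (35.4% of all genes) and 2 lower (36.1%) than at 0 h, with Irf1 called up (20%) and 0 called down (20.1%), and the median over the list was 0.63 against -0.01 for all genes. Irf4 and Irf3 were the lower ones.

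In the ETS family 20 of 26 genes were tested. Elf3, all of whose bases lie in another gene, and Ehf were at 0, and 4 had too few counts. At 2 h 4 ETS genes had risen and 10 had fallen, with a median of -0.34 against 0.03 for all genes, and 3 were called down (23.9% higher, 23.8% lower and 6.91% called down among all genes). These were Fli1 and, named after their values were seen, Etv6 and Elk3. Etv6, a transcriptional repressor, was at 1075 ± 7.24 CPM at 0 h and 265 ± 0.14 CPM at 2 h (log2 -2.02, SE 0.0383, adjusted p = 3.21e-20). Elk3 was at 145 ± 0.625 CPM at 0 h and 55.6 ± 1.78 CPM at 2 h (log2 -1.39, SE 0.0611, adjusted p = 2.84e-14). At 24 h 7 were higher (35.4% of all genes) and 9 lower (36.1%), with 3 called up (20%) and 5 down (20.1%). Beside Ets1, Elf1 rose from 559 ± 4.8 to 1373 ± 18 CPM (log2 1.30, adjusted p = 2.22e-20) and Elk4 from 52.8 ± 1.76 to 117 ± 5.08 CPM (log2 1.15, adjusted p = 1.54e-16). Etv4 and Etv5, relatives that respond to growth factor signalling, fell from 13.7 ± 0.181 to 0.804 ± 0.168 CPM (log2 -4.07, adjusted p = 1.88e-16) and from 190 ± 1.24 to 28.8 ± 2.22 CPM (log2 -2.72, adjusted p = 4.17e-21). Spdef went from 12 and 16 counts to 1 and 3, and Etv6 and Erf, named after their values were seen, completed the 5.

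Of the 14 genes of the POU list, Pou2af1 included, 6 were tested and Pou3f2, Pou3f4 and Pou3f3, which has no base free of other genes, were at 0. At 2 h 3 had risen (23.9% of all genes), all of them members, and 0 had fallen (23.8%). At an unadjusted p under 0.05 edgeR had Pou4f1 lower and Pou6f1 higher at 2 h, with Pou4f1 also lower at an adjusted p under 0.05. At 24 h 3 were higher (35.4% of all genes), Pou2af1, Pou2f1 and Pou6f1, and 1 was lower (36.1%), Pou4f1. The counts of Pou4f1 were 8 and 11 at 0 h and 1 and 0 at 24 h. Pou6f1 rose from 2.13 ± 0.0155 to 6.02 ± 0.139 CPM (log2 1.5, SE 0.155, adjusted p = 1.36e-08). None of the 3 tested genes beside the members passed at 2 h (adjusted p from 0.0406 to 0.787), and the median over the list was 0.34 at 2 h and 0.07 at 24 h.

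**Figure D4:**
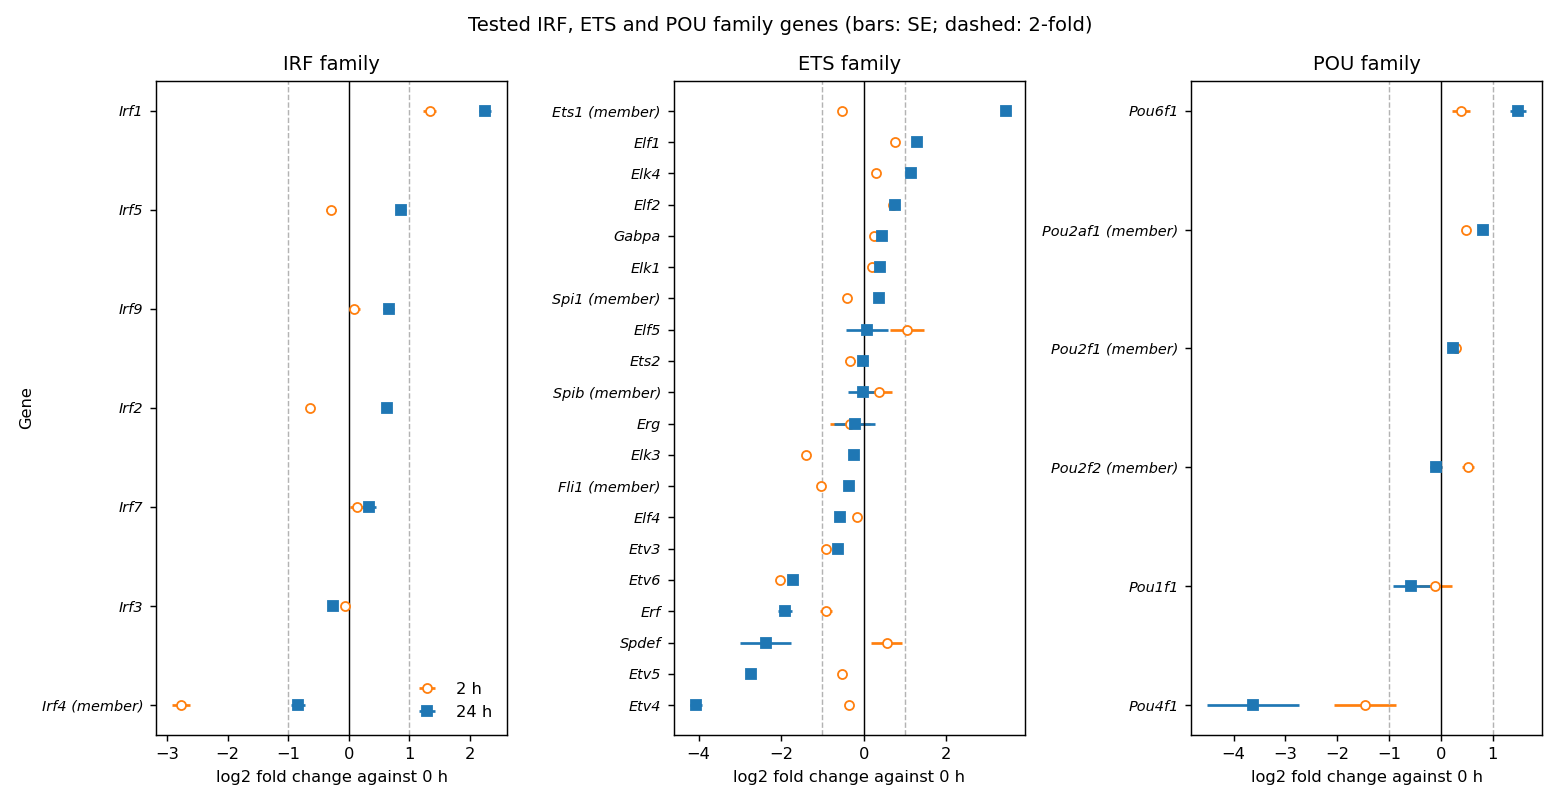
Log2 fold change against 0 h at 2 h (open circles) and 24 h (filled squares), with SE bars, for the tested genes of the IRF, ETS and POU lists, sorted by the 24 h value; dashed lines mark 2-fold. Ets1 is the highest of the ETS genes at 24 h (3.46) and Irf4 the lowest of the IRF genes at both times (-2.77 and -0.83), and Pou4f1 and Spdef rest on few counts.

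Most tested genes known as targets of these factors were higher at 24 h, in a list chosen with earlier results of these data known. Of 20 such targets 16 were tested. The light chain constant genes Igkc and Iglc1, and Ms4a1, were at 0, and all of their bases lie in other genes. At 2 h 6 had risen (23.9% of all genes) and 7 had fallen (23.8%). Of these 1 was called up (6.25% of all genes) and 3 down (6.91%), and the median over the list was -0.09. At 24 h 10 passed as higher (35.4% of all genes) and 4 as lower (36.1%). Called up were 10 (20% of all genes) and called down 3 (20.1%), with a median of 1.22 against -0.01 for all genes. Btk, named after its values were seen, was the lower target not called at 24 h (log2 -0.49, SE 0.0402, adjusted p = 2.88e-10, edgeR). It had been called down at 6 h (log2 -1.02). Blnk, the adaptor of pre-B cell receptor signalling, was at 25.2 and 24.9 CPM at 0 h, 9.55 and 9.32 CPM at 2 h and 528 and 496 CPM at 24 h. Its log2 fold change turned from -1.41 at 2 h (SE 0.0654, adjusted p = 7.05e-14) to 4.35 at 24 h (SE 0.0529, adjusted p = 2.96e-24). Fcgr2b, the inhibitory Fc receptor, rose from 7.28 ± 0.0364 to 67.3 ± 3.48 CPM at 24 h (log2 3.21, adjusted p = 1.78e-20) and was at 0.06 at 2 h (adjusted p = 0.581). Syk, the kinase upstream of Blnk, rose from 163 ± 0.816 to 953 ± 0.553 CPM (log2 2.55, adjusted p = 4.47e-22). Ikzf3, the IKZF1 relative, fell by 1.13 on the log2 scale at 2 h (adjusted p = 7.88e-12) and 3.03 at 24 h (adjusted p = 3.53e-18). Cd40 went from 34 and 29 counts in the 0 h libraries to 3 and 5 counts at 2 h and 6 and 2 counts at 24 h. Csf1r, a myeloid target of PU.1, went from 56 and 52 counts to 10 and 19 counts at 24 h. Blk, named after its values were seen, was the target called up at 2 h (log2 1.41, SE 0.212, adjusted p = 7.13e-06).

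**Figure D5:**
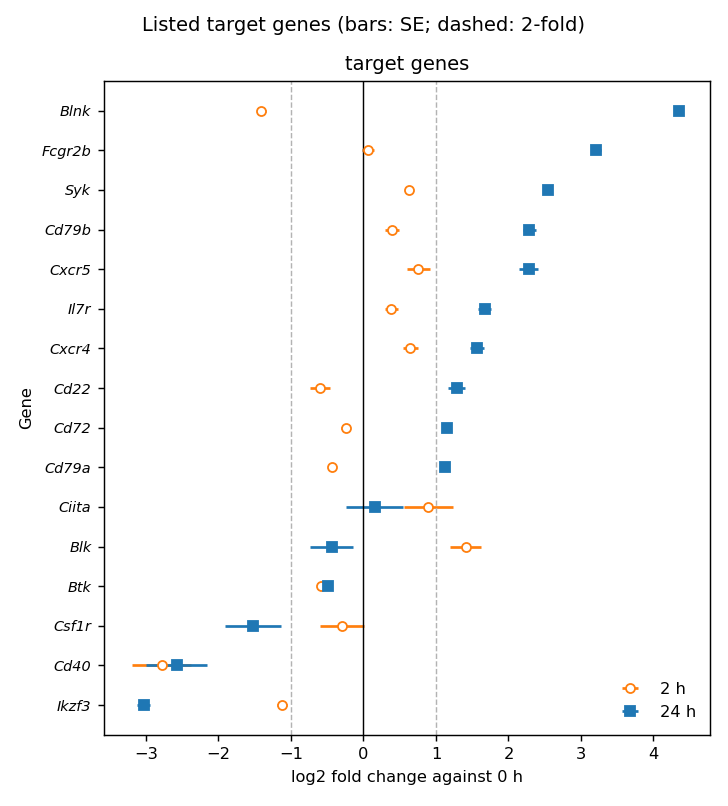
Log2 fold change against 0 h of the 16 tested target genes at 2 h (open circles) and 24 h (filled squares), with SE bars, sorted by the 24 h value; dashed lines mark 2-fold. At 24 h 10 genes lie beyond the upper line, led by Blnk (4.35), and Cd40 and Csf1r at the lower end rest on few counts.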

How the data were processed

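Chromatin-associated RNA of B3 cells was sequenced in 20 libraries from directional, rRNA-depleted library preparations. The authors aligned the reads to mm10 (GRCm38) with nf-core/rnaseq and STAR and used featureCounts, with reads in introns kept, for the raw gene counts they deposited. The annotation release, strand setting and treatment of shared reads are not given in the sources used here, and the counts themselves show that reads in bases covered by more than 1 gene, on either strand, were not counted. The labels do not settle whether the 0 h libraries are separate cultures, so p-values measure the spread between these libraries, which may be technical.

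Gene positions were taken from GENCODE M21, which holds 55154 of the 56239 gene identifiers. edgeR 4.0.16 in R 4.3.3 was run on genes reaching 10 counts in 2 or more libraries, with TMM scaling, a term for time point and the quasi-likelihood test, adjusted by Benjamini-Hochberg (adjusted p under 0.01, fold change above 2). Midpoint times come from linear interpolation of log2 CPM, and profiles were compared on the scale of log2(CPM + 0.1). Depth describes counting error only, since reads carry no molecular identifiers. The members and gene lists were chosen with earlier results of these data known, and 2 listed genes that are not members are not reported here and are left out of the list counts. Named are all members, the largest rises and falls called in each list at 2 or 24 h (up to 3 each), the 3 genes most like each member averaging at least 1 CPM, the nearest tested protein-coding neighbours, and Ikzf1.

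Alternatives were DESeq2 1.42.0 and its size factors, library totals only, other filters and thresholds, a test against a 2-fold change, the 4 libraries compared alone, a replicate block, other lengths and scales, and leaving out each replicate. The unshared length and the model without 12, 18 and 21 h were added after seeing the data. The fit was tested on simulated data.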

Additional observations from a re-analysis of the deposited data

Results flagged for a closer look

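The change of Spi1 against 0 h differed between an early and a late time point, being lower at 2 h and higher at 15 h, with a difference of 0.907 on the log2 scale (SE 0.0769, adjusted p = 1.14e-09, edgeR). Ets1 likewise was lower at 2 h and higher at 24 h, with a difference of 3.98 (SE 0.0598, adjusted p = 1.81e-22, edgeR), and both replicates showed each direction. Both differences compare the late with the early libraries directly, and the comparisons with 0 h share their reference. The early and late times were those of the largest change up to 2 h and from 12 h in these same libraries. The adjusted p-values do not allow for that choice.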

How the results depend on the processing

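Of 840 log2 fold changes of members under the alternatives, 787 kept their direction and their side of the threshold, 20 were no longer past it, 23 came past it and 10 turned direction. Scaling by library totals moved the median over all genes to -0.126 at 18 h, -0.24 at 21 h and -0.268 at 24 h, and with it 1 member and 1 IRF gene (Irf4) was called down at 24 h against 0. Directions that turned, none of them past the threshold in the alternative, were Spi1 at 21 h (-0.007), Spib at 21 h (-0.101) and Pou2f1 at 24 h (-0.025) with library totals, and Spib at 24 h with DESeq2 (0.001). Leaving out single replicates gave Spib values of -0.674 to 0.039 at 30 min (highest without 30 min replicate 2), -0.015 to 0.46 at 1 h (lowest without 1 h replicate 2), -0.111 to 0.548 at 6 h (lowest without 6 h replicate 1), -0.021 to 0.30 at 21 h (lowest without 21 h replicate 1) and -0.478 to 0.355 at 24 h (highest without 24 h replicate 2, and 0.032 without 0 h replicate 2).

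The test against a 2-fold change left 1 member down and 0 targets up at 2 h (2 and 1 before). DESeq2 gave 0 POU genes down at 24 h (1 before), the latter also with at least 10 counts in every library or the 4 libraries alone. An adjusted p under 0.05 gave 1 ETS gene up and 1 POU gene down at 2 h (0 before), and 10 counts in every library left 1 target down at 24 h (3 before). Leaving out replicates gave 0 to 1 POU genes down at 24 h (0 without 24 h replicate 2) and 5 to 6 members changed over the time course (5 without 15 h replicate 1).

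Midpoint times on the linear scale were 0.355 h for Irf4, 15.7 h for Ets1, 0.623 h for Fli1 and 3.82 h for Pou2af1. They were 12.1 h for Spi1 in replicate 1, 9.98 h for Spib and 0.968 h for Pou2f1 in replicate 2, against 5.77, 12.2 and 3.34 h. Levels at 0 h were also taken as the same counts, introns included, over summed exon length. They were 1.97 (Irf4), 10.1 (Spi1), 0.212 (Spib), 19.0 (Ets1), 505 (Fli1), 89.2 (Pou2af1), 13.2 (Pou2f1) and 1.84 (Pou2f2) CPM per kb. That length places Ets1 above Pou2f1. Per kb of unshared bases the levels were 16.8 (Fli1), 10.1 (Pou2af1) and 1.77 (Pou2f1) CPM. Deviations of same-numbered libraries over 12056 genes correlated at -0.00032 on average over 45 pairs of time points (-0.454 to 0.249). Correlations of opposite sign cancel in this average, so it cannot show whether replicate numbers pair the libraries. With the replicate block, 1 member no longer passed, Spi1 at 18 h (log2 0.23, adjusted p = 0.0102 against 0.00837, from 0.000978 to 0.25 over 11 alternatives), and no member value moved by more than 0.006. The cause of these shifts was not tested. Counts limit Spib, Spdef, Pou4f1, Cd40 and Csf1r.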
